A study of Mus musculus with 8 samples.

Results

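Semaphorins, plexins and neuropilins were followed in mouse pancreatic islets as 32 of 17097 genes measured on expression arrays. They are the genes whose symbols begin with Sema and a number or with Plxn, together with Nrp1 and Nrp2, which gave 20 semaphorin genes, 9 plexin genes, 2 neuropilin genes and Plxna4os1, an RNA transcribed opposite Plxna4. The family was picked because Sema5a had the largest rise with the transgene in untreated islets. That difference is therefore given for Sema5a as a description with no test, and the question asked of the other genes was whether any relative or receptor followed it.

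Islets were taken at the age of 20 weeks, and 8 arrays were hybridised, 2 for each of 4 groups. Wild-type mice were untreated or received 4-phenylbutyrate (PBA), a chemical chaperone, in water at 1 g/kg/day from 8 weeks of age for 12 weeks. Mice labelled hIAPP transgenic, which carry the human gene of islet amyloid polypeptide, were untreated or received PBA at the same dose. The strain label of all 8 samples is FVB/N-Tg(Ins2-IAPP)RFHSoel/J, which names an insulin gene promoter, active in beta cells, for the transgene. The labels do not say how many mice gave an array or whether islets were pooled, so each p-value reflects only the spread between arrays, which may be technical.

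Semaphorins are secreted or membrane-bound guidance proteins that signal through plexins. Most secreted class 3 semaphorins first bind a neuropilin, which pairs with a plexin of the A or D type, and neuropilins also bind vascular endothelial growth factors. Sema5a is a membrane protein with thrombospondin repeats, and Plxnb3 is a known receptor for it. Outside the nervous system these genes are best known from blood vessels, immune cells and bone.

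All levels are log2 values, and values of different genes come from different probes and are not ranked against each other. The 95th percentile of the non-specific control probe sets was 4.68, and 22 of the 32 genes exceeded it on at least 2 arrays, against 10655 of all 17097 genes. Correlation across genes was 0.993 to 0.994 within groups and 0.972 to 0.994 between them. The median of 14 probe sets for spiked-in hybridisation controls was 6.3 on PBA-treated wild type 1 and 9.3 to 9.7 on the other 7 arrays. The median over all genes was 5.9 on both untreated hIAPP arrays and 5.7 on the other 6, so that centring each array lowers every transgene difference without PBA by 0.2 and raises every PBA difference in hIAPP islets by 0.2. Of the islet markers, 9 of 9 measured genes exceeded background, with a median level of 12.6 to 13.0 per array. For the transgene without PBA, limma called 2 of these 9 lower (4 with centred arrays) and 0 higher. For PBA in hIAPP islets it called 1 of the 9 higher (5 with centred arrays) and 0 lower.

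Sema5a shares a start region with its nearest tested neighbour, Snhg18, and Sema3c, Sema3g and Plxnd1 had the largest other differences, so the 250 bases before the starts of these 4 family genes are shown. They are RefSeq sequences of GRCm38.p6, 5′ to 3′ on the strand of the gene, and 26 of the 32 genes had an entry. Capitals mark the GC box, GGGCGG, and the E-box, CANNTG, on either strand.
Sema5a, chr15:32244563-32244812, plus strand: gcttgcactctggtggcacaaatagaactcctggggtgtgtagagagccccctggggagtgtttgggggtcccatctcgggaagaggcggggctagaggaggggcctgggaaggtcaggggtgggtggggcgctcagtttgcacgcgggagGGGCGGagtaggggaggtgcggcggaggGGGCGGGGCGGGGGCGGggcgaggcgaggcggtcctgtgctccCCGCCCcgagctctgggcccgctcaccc
Sema3c, chr5:17574566-17574815, plus strand: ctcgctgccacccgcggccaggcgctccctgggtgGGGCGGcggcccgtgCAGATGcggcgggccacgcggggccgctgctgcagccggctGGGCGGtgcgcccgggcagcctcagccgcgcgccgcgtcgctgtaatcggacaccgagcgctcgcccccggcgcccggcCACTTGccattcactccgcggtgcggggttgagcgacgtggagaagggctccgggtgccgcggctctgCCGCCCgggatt
Sema3g, chr14:31217623-31217872, plus strand: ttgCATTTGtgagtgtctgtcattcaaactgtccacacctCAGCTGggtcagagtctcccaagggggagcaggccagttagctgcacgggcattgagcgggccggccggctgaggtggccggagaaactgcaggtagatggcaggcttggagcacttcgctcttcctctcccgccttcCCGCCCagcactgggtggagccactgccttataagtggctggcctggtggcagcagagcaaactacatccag
Plxnd1, chr6:115995006-115995255, minus strand: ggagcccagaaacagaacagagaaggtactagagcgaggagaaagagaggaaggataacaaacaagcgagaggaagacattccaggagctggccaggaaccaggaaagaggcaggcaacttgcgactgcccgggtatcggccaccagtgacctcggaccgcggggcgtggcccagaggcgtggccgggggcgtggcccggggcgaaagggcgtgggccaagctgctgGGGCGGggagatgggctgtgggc

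The Sema5a window holds 5 GC boxes, that of Sema3c 3, and those of Sema3g and Plxnd1 1 each. Such a box lies in 32.7% of the 32851 windows of this length in the table. The Sema3c and Sema3g windows hold 2 E-boxes each, and an E-box lies in 66.2% of all windows. No window of these 4 holds TATAAA (12.4% of all windows), CCAAT (33.8%) or the AP-1 motif TGANTCA (6.7%). The annotated starts of Sema5a, on the plus strand, and Snhg18, on the minus strand, point away from each other with 150 bases between them, chr15:32244663-32244812. All 5 GC boxes of the Sema5a window, some of which overlap, lie in that stretch. The window of Snhg18 covers the same stretch, and its 5 GC boxes are these same 5.

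Sema5a stood at a low level on every wild-type array and at a high level on every hIAPP array, with or without PBA. Without PBA it was 5.0 and 5.0 in wild-type and 9.8 and 9.8 in hIAPP islets, a log2 difference of 4.80. With PBA it was 4.9 and 4.9 in wild-type and 9.4 and 9.7 in hIAPP islets. The 4 hIAPP arrays therefore lay well apart from the 4 wild-type arrays, whatever the treatment. Sema5a was chosen for its rise in untreated islets. Its probe set, however, was picked by the mean over all arrays, those with PBA included. The test on the PBA-treated arrays is therefore not fully independent of these choices. On them Sema5a was higher in hIAPP islets by 4.65 (SE 0.12 from the fit of all arrays, limma adjusted p = 1.7e-05).

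The differences of Sema5a with PBA were small beside that between the genotypes, and none passed. In hIAPP islets the difference with PBA was -0.25 (SE 0.12, limma adjusted p = 0.2671), and in wild-type islets it was -0.10 (SE 0.12, limma adjusted p = 0.8040). The transgene difference with PBA minus that without was -0.15 (SE 0.17, limma adjusted p = 0.7048). With only the 4 PBA-treated arrays in the fit, the transgene difference of 4.65 did not pass (limma adjusted p = 0.3141), and neither did any of the 17097 genes.

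**Figure D1:**
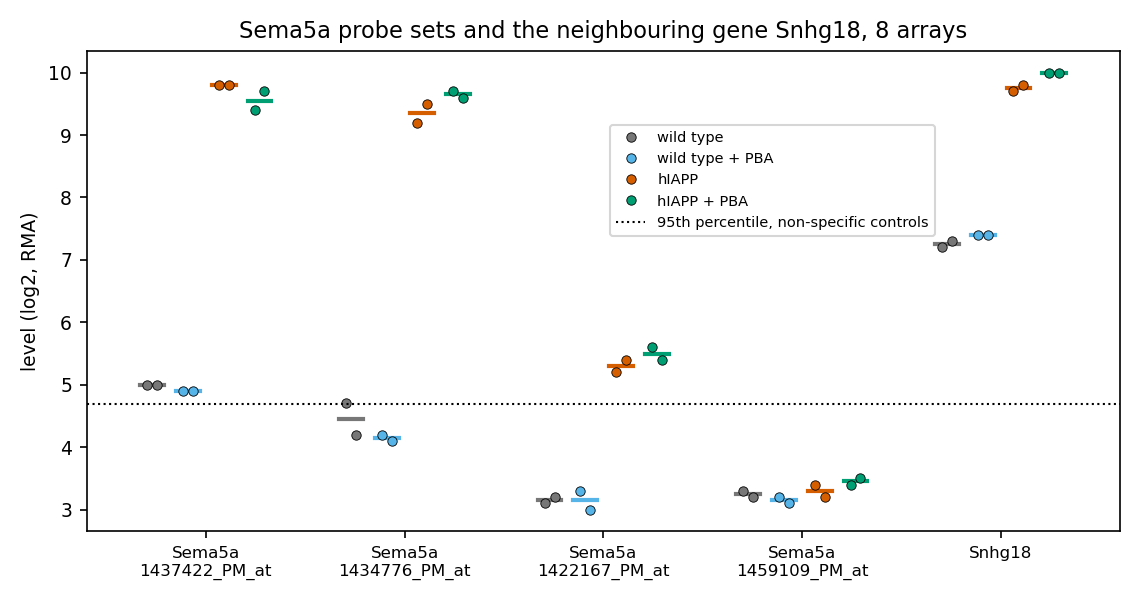
Levels (log2) of the 4 Sema5a probe sets and of Snhg18 on each of the 8 arrays, with points for arrays and bars for group means. The hIAPP arrays lie above all wild-type arrays in 3 Sema5a probe sets and in Snhg18, and 1459109_PM_at stays at 3.1 to 3.5 on all arrays, under the dotted background line.

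Sema5a has 4 probe sets, and 3 of them showed the same pattern. 1434776_PM_at was 4.7 and 4.2 in untreated wild-type, 4.2 and 4.1 in PBA-treated wild-type, 9.2 and 9.5 in untreated hIAPP and 9.7 and 9.6 in PBA-treated hIAPP islets. 1422167_PM_at was 3.0 to 3.3 in wild-type islets, under the background line, and 5.2 to 5.6 in hIAPP islets. Under PBA both wild-type values of either probe set were under the background line, so each difference is a bound, taken against that line. 1434776_PM_at was at least 31.2-fold higher in PBA-treated hIAPP islets (means 9.65 and 4.15, limma adjusted p = 5.2e-05 in the fit of all probe sets). 1422167_PM_at was at least 1.76-fold higher there (means 5.5 and 3.15, limma adjusted p = 0.0014). The fourth, 1459109_PM_at, read 3.1 to 3.5 on all arrays, so it gives only that it was near background. The mean of the 4 probe sets, with the dim ones included, differed without PBA by 2.98.

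Snhg18, a long non-coding RNA gene that hosts a small nucleolar RNA, lay nearer to the Sema5a pattern over 8 arrays than any family member did. It was 7.2 and 7.3 in untreated wild-type, 7.4 and 7.4 in PBA-treated wild-type, 9.7 and 9.8 in untreated hIAPP and 10.0 and 10.0 in PBA-treated hIAPP islets. No hIAPP array came near the wild-type range. The difference was 2.5 (SE 0.10, limma adjusted p = 1.7e-04) without PBA and 2.60 (SE 0.10, limma adjusted p = 1.3e-04) with PBA. Snhg18 was singled out by its place, as the nearest gene tested on that side of Sema5a. The labels do not give the place of the transgene in the genome, and whether it lies near these genes was not tested.

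The other 9 of the 10 nearest genes tested did not rise. Cmbl, a hydrolase gene and the fifth gene tested on the Snhg18 side, fell in untreated hIAPP islets, from 8.8 and 8.8 to 8.1 and 7.9 (-0.80, SE 0.11, limma adjusted p = 0.0038). With PBA Cmbl was 8.6 and 8.5 in wild-type and 8.1 and 8.1 in hIAPP islets (-0.45, SE 0.11, limma adjusted p = 0.1863), so the hIAPP arrays were below the wild-type arrays in both arms. Sdc2, a syndecan gene and the next gene tested on the other side, differed by 0.55 (limma adjusted p = 0.1682) without PBA and by -0.50 (limma adjusted p = 0.4176) with it. The peptidase gene Cpq was 10.4 and 10.4 in wild-type and 10.2 and 10.2 in hIAPP islets without PBA (-0.20, limma adjusted p = 0.2366). With PBA it was 10.6 and 10.6 against 10.3 and 10.2 (-0.35, limma adjusted p = 0.2173), so its hIAPP arrays were also lower in both arms. Over all genes, 2.94% had all 4 hIAPP arrays below all 4 wild-type arrays, and 3.19% were called lower with the transgene without PBA. Cct5, a chaperonin subunit gene, Atpsckmt, the taste receptor gene Tas2r119, Tspyl5, 1700084J12Rik and 4930592A05Rik differed by -0.40 to 0.20 in either arm, and none passed.

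**Figure D2:**
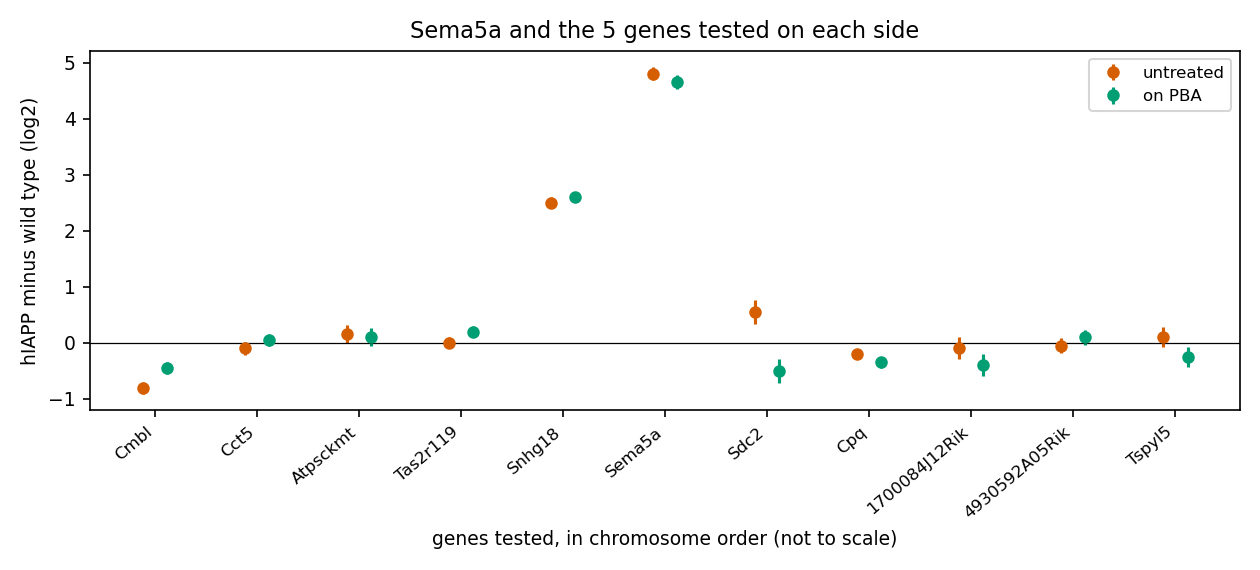
Log2 difference between hIAPP and wild-type islets for Sema5a and the 5 genes tested on each side of it, untreated (orange) and on PBA (green), with bars of 1 SE. Genes stand in chromosome order, not to scale. Sema5a and Snhg18 lie at 2.5 to 4.80 in both arms, and the others between -0.80 and 0.55.

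Of the relatives and receptors, 5 were higher in untreated hIAPP islets, and all of them were lower with PBA. They were the class 3 semaphorin genes Sema3c and Sema3g, the class 7 gene Sema7a, the neuropilin gene Nrp1 and the plexin gene Plxnd1. With Sema5a, 6 of the 32 genes (18.8%) were higher and 0 lower with the transgene in untreated islets, where 7.77% of all genes were higher and 3.19% lower. As the family was chosen on this comparison, nothing is read from that share. With PBA in hIAPP islets 5 of the 32 (15.6%) were lower and 0 higher, where 6.32% of all genes were lower and 1.78% higher. These comparisons share the untreated hIAPP arrays. With arrays centred on their medians, all genes split into 1083 higher and 3266 lower for the transgene (1329 and 545 as deposited) and 2612 higher and 888 lower for PBA in hIAPP islets (304 and 1080). Centred in this way, the family itself gave 5 higher and 2 lower for the transgene, with Sema7a lost and Plxna2 and Sema3a called lower. For PBA in hIAPP islets it then gave 3 higher and 4 lower, with Nrp1 lost and Plxna2, Sema3e and Sema4f called higher. The median difference over the 32 genes was 0.12 for the transgene without PBA (-0.05 over all genes) and -0.20 for PBA in hIAPP islets (0.0 over all genes), before any centring, which moves these medians by the same 0.2.

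**Figure D3:**
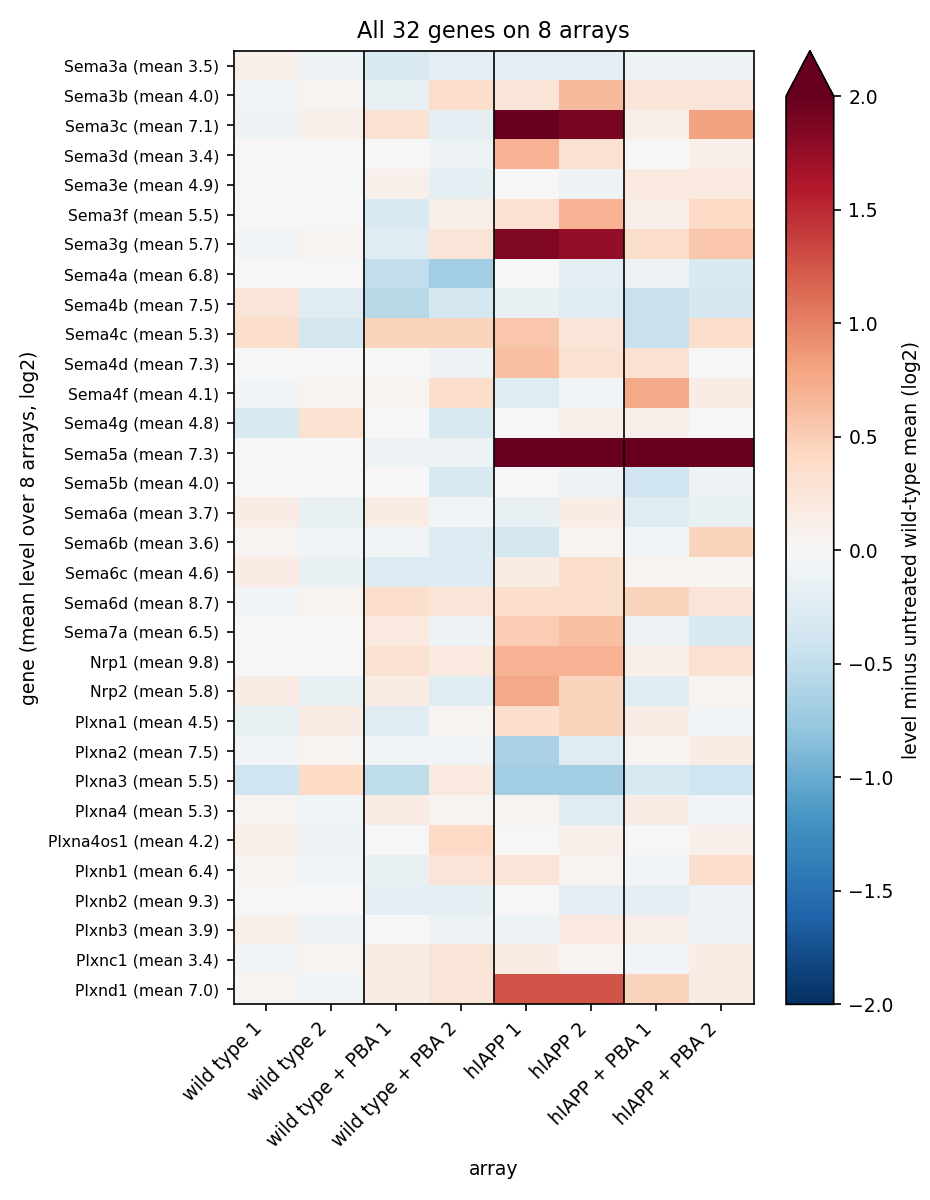
Levels of all 32 genes on the 8 arrays, as log2 differences from the mean of the untreated wild-type arrays. Colours end at 2 in either direction, so Sema5a, at 4.4 to 4.8 on the hIAPP arrays, is off the scale. Sema5a is dark on all 4 hIAPP arrays, whereas Sema3c, Sema3g and Plxnd1 are dark on the 2 untreated hIAPP arrays.

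Sema3c, a secreted ligand of neuropilins, was 6.4 and 6.6 in untreated wild-type, 6.8 and 6.3 in PBA-treated wild-type, 8.5 and 8.4 in untreated hIAPP and 6.6 and 7.3 in PBA-treated hIAPP islets. The untreated hIAPP arrays were above the other 6, and the PBA-treated hIAPP arrays overlapped the wild-type range. It rose with the transgene by 1.95 (SE 0.25, limma adjusted p = 0.0035) and fell with PBA in hIAPP islets (-1.5, SE 0.25, limma adjusted p = 0.0129). Its second, dimmer probe set differed by 0.80 (limma adjusted p = 0.1162) and -0.55 (limma adjusted p = 0.2921), in the same directions.

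Sema3g, a class 3 semaphorin of blood vessels, was 5.1 and 5.2 in untreated wild-type, 4.9 and 5.4 in PBA-treated wild-type, 7.0 and 6.9 in untreated hIAPP and 5.5 and 5.7 in PBA-treated hIAPP islets. It rose with the transgene by 1.80 (SE 0.17, limma adjusted p = 0.0011) and fell with PBA in hIAPP islets (-1.35, SE 0.17, limma adjusted p = 0.0051). The PBA-treated hIAPP arrays stayed just above all wild-type arrays, with a transgene difference under PBA of 0.45 that did not pass (SE 0.17, limma adjusted p = 0.3551). Sema3g and Sema5a were the 2 of 32 genes (6.25%) with all 4 hIAPP arrays above all 4 wild-type arrays, a pattern that 3.22% of all genes had. As the family was chosen for the rise of Sema5a, nothing is read from that share. The opposite pattern was seen in 0 of the 32 (2.94% of all genes).

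Sema7a, a membrane-anchored semaphorin that binds an integrin and Plxnc1, was 6.4 and 6.4 in untreated wild-type, 6.6 and 6.3 in PBA-treated wild-type, 6.9 and 7.0 in untreated hIAPP and 6.3 and 6.1 in PBA-treated hIAPP islets. Its rise of 0.55 was the smallest that passed (SE 0.13, limma adjusted p = 0.0403), and it fell with PBA in hIAPP islets (-0.75, SE 0.13, limma adjusted p = 0.0160). The second, dimmer Sema7a probe set, 1422040_PM_at, was 3.7 to 4.2 on all arrays, below the background line. It differed by 0.15 and -0.15 in these comparisons (limma adjusted p = 0.6986 and 0.7062 in the fit of all probe sets). Plxnc1, the plexin of Sema7a, stayed at 3.3 to 3.6 on all arrays, also below the background line. The rise of Sema7a passed in 2 of the 8 fits that left out 1 array and in 2 of the 9 other alternatives.

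Among the receptors, Nrp1, which binds class 3 semaphorins and vascular endothelial growth factor, was 9.5 and 9.5 in untreated wild-type, 9.8 and 9.7 in PBA-treated wild-type, 10.2 and 10.2 in untreated hIAPP and 9.6 and 9.8 in PBA-treated hIAPP islets. The untreated hIAPP arrays were the highest, and the PBA-treated arrays of both genotypes overlapped. Nrp1 rose with the transgene by 0.70 (SE 0.11, limma adjusted p = 0.0065) and fell with PBA in hIAPP islets (-0.50, SE 0.11, limma adjusted p = 0.0325). All 3 probe sets of Nrp1 passed for the transgene in the fit of all probe sets (0.70 to 0.80). For PBA in hIAPP islets 1 of the 3 passed there, 1418084_PM_at (-0.75, SE 0.11, limma adjusted p = 0.0108). The fall of Nrp1 passed in 0 of the 8 fits that left out 1 array.

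Plxnd1, a plexin best known from endothelial cells, was 6.6 and 6.5 in untreated wild-type, 6.7 and 6.8 in PBA-treated wild-type, 7.8 and 7.8 in untreated hIAPP and 7.0 and 6.7 in PBA-treated hIAPP islets. It rose with the transgene by 1.25 (SE 0.12, limma adjusted p = 0.0013) and fell with PBA in hIAPP islets (-0.95, SE 0.12, limma adjusted p = 0.0058). The PBA-treated hIAPP arrays overlapped the wild-type arrays on PBA. The direct semaphorin ligand of Plxnd1, Sema3e, was 4.7 to 5.1 on all arrays and differed by -0.05 without PBA and by 0.25 with PBA between the genotypes.

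Nrp2, the other neuropilin, was 5.8 and 5.5 in untreated wild-type, 5.8 and 5.4 in PBA-treated wild-type, 6.4 and 6.1 in untreated hIAPP and 5.4 and 5.7 in PBA-treated hIAPP islets. Its differences of 0.60 with the transgene (SE 0.19, limma adjusted p = 0.0996) and -0.70 with PBA in hIAPP islets (SE 0.19, limma adjusted p = 0.0740) did not pass. With the mean of its probe sets Nrp2 passed in both comparisons, and with trend and robust variances for PBA. In both neuropilins the untreated hIAPP arrays were above the other 6. So they were in 9 of the 32 genes (28.1%), where 12.0% of all genes had that pattern, and the 9 were Sema5a, the 5 genes above, Nrp2, Plxna1 and Sema3d. As the family was chosen on the untreated hIAPP arrays, nothing is read from that share. Sema5a had the pattern only narrowly, at 9.8 and 9.8 against 9.4 and 9.7 in PBA-treated hIAPP islets. Sema3d was at most 4.0 on any array, below the background line.

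**Figure D4:**
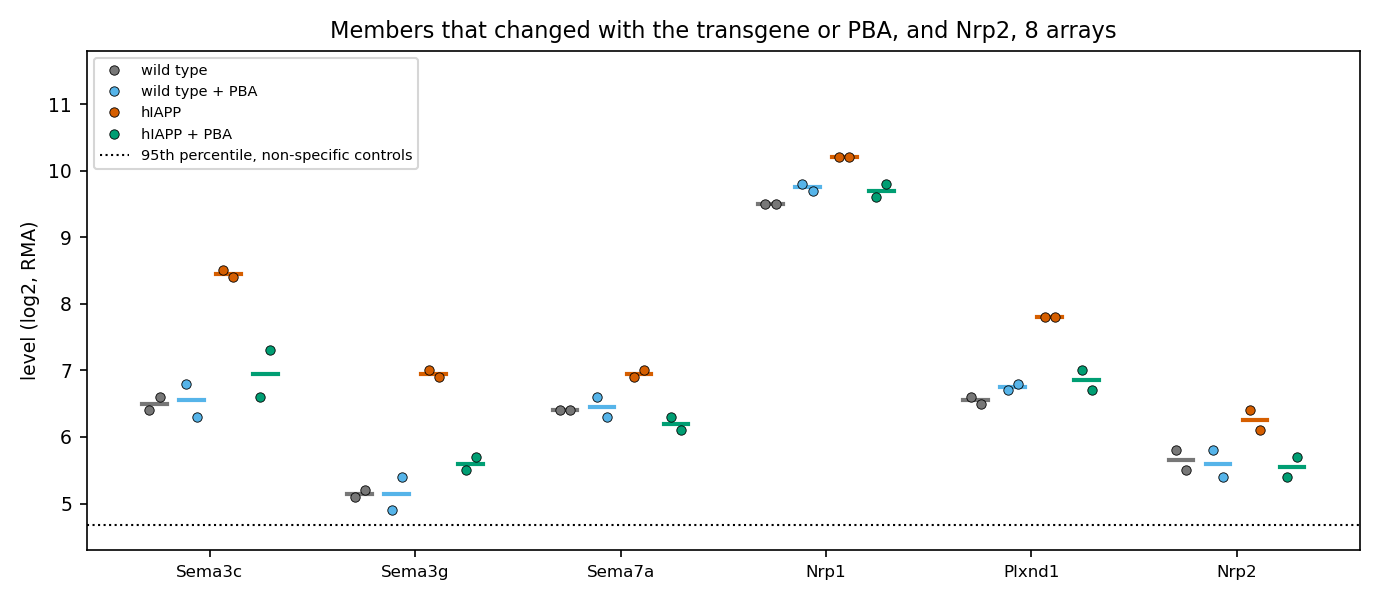
Levels (log2) of Sema3c, Sema3g, Sema7a, Nrp1, Plxnd1 and Nrp2 on each of the 8 arrays, with points for arrays, bars for group means and a dotted line at the 95th percentile of non-specific controls. In each gene the untreated hIAPP arrays (orange) are the highest, and the PBA-treated hIAPP arrays (green) lie at or near the wild-type arrays.

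These transcripts moved with markers of other cell types in the same islets. In whole-islet RNA, fewer cells of a type and less RNA per cell cannot be told apart. Over all genes 7.77% were higher with the transgene and 6.32% lower with PBA in hIAPP islets. Endothelial markers were higher with the transgene in 7 of 10 genes (4 with centred arrays) and lower with PBA in hIAPP islets in 7. Their median level was 7.25 to 7.30 in untreated wild-type, 6.85 to 7.25 in PBA-treated wild-type, 8.20 to 8.45 in untreated hIAPP and 6.90 to 7.15 in PBA-treated hIAPP islets. Macrophage markers were higher in 7 of 10 and lower with PBA in 7, with medians of 6.05 to 6.25, 5.5 to 5.6, 7.6 to 8.00 and 6.45 to 6.70 in the same order of groups, and Cd163 was below background on all arrays. Stellate cell and fibroblast markers were higher in 8 of 10 and lower with PBA in 7, with medians of 6.05 to 6.15, 6.35 to 6.95, 9.15 to 9.40 and 7.6 to 7.95, and the probe sets of Col1a2 and Pdgfra were below background on all arrays. Duct markers were higher in 3 of 8 and lower with PBA in 3, and Sox9 and Cftr were below background on all arrays. The part of these cells in the changes of Sema3c, Sema3g, Sema7a, Nrp1 and Plxnd1 was not tested.

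The part of any cell type in the difference of Sema5a was not tested. With PBA in both genotypes, 0.415% of all genes passed between hIAPP and wild-type islets. In that comparison 0 of 10 endothelial markers passed, with a median difference of -0.05. Of the stellate markers 0 of 10 passed, but their median difference was 0.90. Of the macrophage markers 4 of 10 were higher in hIAPP islets, where 0.316% of all genes were. Schwann and nerve markers, for cells in which semaphorins are well known, had medians of 4.1 to 4.9 on the 8 arrays. Of the 7 measured, 4 exceeded background on some array, and S100b, Gfap and Foxd3 were below it on all arrays. Without PBA 1 of the 7 was higher with the transgene, with a median difference of 0.50, and with PBA in both genotypes 0 passed, with 0.10. T and B lymphocyte markers had medians of 3.75 to 5.35. Of the 8 measured, 6 exceeded background on some array, and Cd4 and Cd8a were below it on all arrays. Acinar markers had a median of 9.25 and 10.9 on the PBA-treated hIAPP arrays and 11.35 to 12.7 on the other 6.

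The remaining semaphorins did not pass in the fit of 1 probe set per gene. Some passed for the transgene under alternatives: Sema3b with the mean of its probe sets, Sema3d, Sema4d and Sema6d with trend and robust variances, and Sema3a, as lower, with centred arrays. Class 4 semaphorins, membrane proteins that mostly bind B-type plexins, differed by -0.20 to 0.45 with the transgene without PBA, with Sema4d, an immune-cell semaphorin, at the upper end (7.2 and 7.2 against 7.8 and 7.5, limma adjusted p = 0.0989). Class 6 semaphorins, ligands of A-type plexins, differed by -0.15 to 0.35. Sema6d was among the brighter probe sets of the family, at 8.4 to 8.9 on all arrays. Sema5b, the closest relative of Sema5a, was 3.7 to 4.1 on all arrays, below the background line, so it did not visibly follow Sema5a and a change under the background could not be seen. Of the other class 3 genes, Sema3f was 5.3 and 5.3 in untreated wild-type and 5.6 and 6.0 in untreated hIAPP islets (0.50, limma adjusted p = 0.1540), and the brightest probe sets of Sema3a, Sema3b and Sema3d stayed below 4.6 on all arrays. A dimmer Sema3b probe set, 1448415_PM_a_at, was 3.5 and 3.4 in untreated wild-type and 4.0 and 4.7 in untreated hIAPP islets, where 1 array exceeded the background line (0.90, SE 0.21, limma adjusted p = 0.0458 in the fit of all probe sets).

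Plxnb3, a known receptor for Sema5a, was 3.8 to 4.1 on all 8 arrays, below the background line. Plxnb1 (6.2 to 6.7) and Plxnb2 (9.2 to 9.4), receptors of class 4 semaphorins, differed by at most 0.20 in size in any comparison of 2 groups. Among the A-type plexins, the partners of neuropilins, Plxna2 was 7.5 and 7.6 in untreated wild-type and 6.9 and 7.3 in untreated hIAPP islets (-0.45, limma adjusted p = 0.0955) and 7.6 and 7.7 in PBA-treated hIAPP islets. Plxna3 was 5.4 and 6.2 in untreated wild-type and 5.1 and 5.1 in untreated hIAPP islets (-0.70, SE 0.29, limma adjusted p = 0.1946), a difference smaller than the gap between the wild-type arrays. These were the 2 of 32 genes (6.25%) with both untreated hIAPP arrays below the other 6, a pattern of 10.8% of all genes. Plxna1 and Plxna4 differed by 0.40 and -0.10 with the transgene, and Plxna4os1 stayed at 4.0 to 4.5.

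None of the 32 genes passed for PBA in wild-type islets by limma (0 past the threshold, 5 at an unadjusted p below 0.05), where 0.292% of all genes passed. The largest difference was in Sema4a, a semaphorin of immune cells, at 7.0 and 7.0 without and 6.5 and 6.3 with PBA (-0.60, SE 0.13, limma adjusted p = 0.1631). With PBA in both genotypes Sema5a alone of the 32 was higher in hIAPP islets and 0 were lower, where 0.316% of all genes were higher and 0.0994% lower (0.415% in all). The other family genes differed by -0.50 to 0.45 there.

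**Figure D5:**
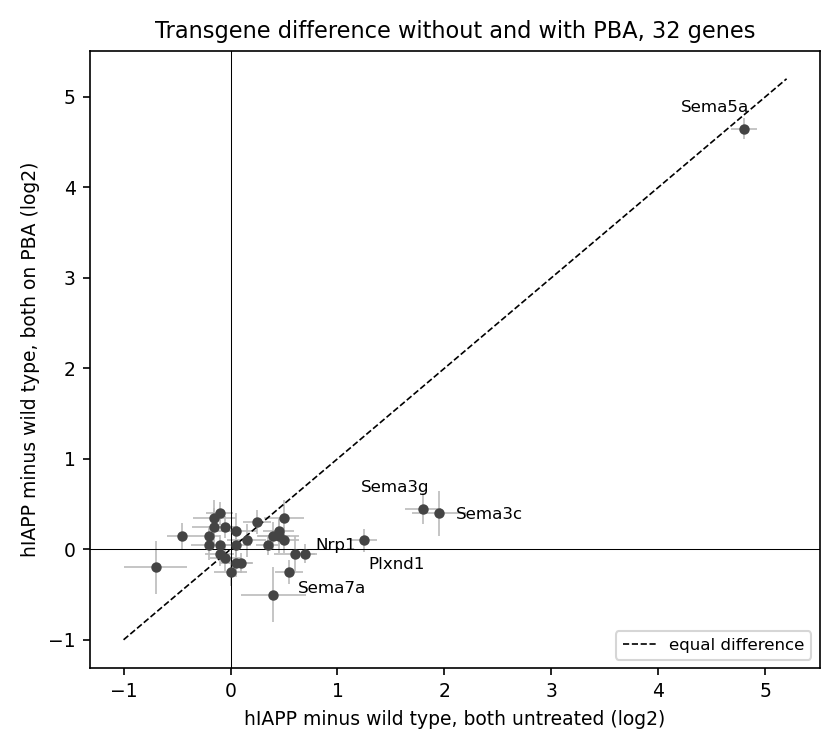
Log2 difference between hIAPP and wild-type islets for the 32 genes, untreated on the x axis and on PBA on the y axis, with bars of 1 SE. The axes share no arrays. Sema5a lies near the dashed line of equal difference at 4.80 and 4.65, whereas Sema3c, Sema3g and Plxnd1 lie at 1.25 to 1.95 on the x axis and 0.10 to 0.45 on the y axis.

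Whether the PBA difference itself depended on genotype was tested as an interaction. Plxnd1 (-1.15, SE 0.18, limma adjusted p = 0.0288) and Sema3g (-1.35, SE 0.24, limma adjusted p = 0.0437) passed, which is 2 of 32 genes (6.25%) beside 1.69% of all genes lower and 0.269% higher (1.96% in all). Sema3c (-1.55, SE 0.35, limma adjusted p = 0.0806), Sema7a (-0.80, SE 0.19, limma adjusted p = 0.0858) and Nrp1 (-0.75, SE 0.15, limma adjusted p = 0.0586) did not pass. Both interaction calls were lost in all 8 fits that left out 1 array, where 0 of the 32 genes passed. They were also lost with the replicate block (0 of 32).

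The counts rest on 2 arrays per group. For the transgene without PBA, Sema3g and Plxnd1 passed in all 8 fits that left out 1 array. Sema3c, Sema7a and Nrp1 were lost without wild type 1, without wild type 2 or without hIAPP 1, and Sema3c and Sema7a also without hIAPP 2. Sema7a was lost as well when either PBA-treated hIAPP array was left out. For PBA in hIAPP islets, 2 passed without wild type 1 or wild type 2, 0 without hIAPP 1, 1 without hIAPP 2 (Plxna2, called higher), 1 with the first PBA-treated hIAPP array left out and 3 with the second left out. That count was also 0 in the fit of those 4 arrays alone, 0 with the median acinar marker as a covariate, and 0 when the first array of each PBA-treated genotype was left out. The transgene calls of Sema3c, Sema3g, Nrp1 and Plxnd1 held with that covariate and in a fit of only the 4 untreated arrays.

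Genes that act with semaphorins were counted from a list chosen with earlier results of these data known, so its shares are a description. Of 46 measured co-receptor, effector and neuropilin ligand genes, 11 were higher with the transgene without PBA and 0 lower, where 7.77% of all genes were higher and 3.19% lower. With PBA in hIAPP islets 8 were lower and 0 higher, where 6.32% of all genes were lower and 1.78% higher. The medians were 0.20 and -0.15, and with centred arrays the list gave 11 higher and 4 lower for the transgene and 2 higher and 7 lower for PBA, with medians of 0.0 and 0.05. Under PBA 0 of 46 differed between genotypes, and PBA in wild-type islets changed 0 by limma. The interaction passed in 4, all lower, where 1.69% of all genes were lower.

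Itga1, an integrin chain that pairs with Itgb1 as a Sema7a receptor, was 4.3 and 4.4 in untreated wild-type islets, under the background line, 6.1 and 6.3 in untreated hIAPP and 4.7 and 4.3 in PBA-treated hIAPP islets. Against that line it was at least 2.86-fold higher with the transgene (limma adjusted p = 6.6e-04), and it fell with PBA in hIAPP islets (limma adjusted p = 0.0020), where 1 of 2 arrays exceeded the line. Rras, a small GTPase that plexins switch off, rose by 1.10 (SE 0.10, limma adjusted p = 0.0011) and fell likewise (-1.10, SE 0.10, limma adjusted p = 0.0021). Rnd3, of the Rnd family of GTPases that bind plexins, rose by 1.15 (SE 0.14) and fell (-1.20, SE 0.14), and Fyn, a Src-family kinase, rose by 0.95 (SE 0.13) and fell (-0.90, SE 0.13), with limma adjusted p of at most 0.0088. These 4 were also the genes of the list whose interaction passed, and each was lost in all 8 fits that left out 1 array. Of 5 growth factor genes whose products bind neuropilins or their partners, Vegfc (1.10, SE 0.16, limma adjusted p = 0.0061) and Pgf (0.80, SE 0.15, limma adjusted p = 0.0165) rose with the transgene. Vegfa and Vegfb each differed by -0.30 and Vegfd by 0.20, and none of these passed. Leaving out 1 array lost the call of Pgf in 4 of 8 fits and that of Vegfc in 2 of 8, and neither passed in the fit of only the 4 untreated arrays (limma adjusted p = 0.0519 for Pgf and 0.1109 for Vegfc).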

How the data were processed

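The authors hybridised islet RNA to 8 Affymetrix arrays. The deposited values are on the log2 scale, 1 per probe set and array, made by the authors with RMA and the affy package, per the submitters' processing notes, whose version is not given in the sources used here. RMA subtracts background, quantile-normalises all arrays and summarises probes, so most of a global shift between arrays is not kept. The array medians over the genes tested still differed, as given above. Values carry 1 decimal and were not changed further. Of 45141 probe sets, 104 are controls, 28898 name 1 gene, 551 several and 15588 none. The probe set with the highest mean over 8 arrays stood for a gene, which gave 17097 genes.

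A linear fit of 4 group means to all 8 arrays was made with limma 3.58.1 in R 4.3.3 (4 residual and 3.27 prior degrees of freedom, prior SD 0.132). Tests were two-sided, with Benjamini-Hochberg adjustment over 17097 genes per comparison and a threshold of 0.05. The script was tested on simulated data. Gene order and sequences came from RefSeq tables of GRCm38.p6, handled with pandas 2.3.3 in Python 3.11.15. The number of arrays limits the precision.

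The family, marker and pathway lists were chosen with earlier results of these data known. Named were Sema5a, members past the threshold, members whose hIAPP and wild-type arrays did not overlap, the brightest members, the 5 genes tested on each side of Sema5a, the 5 genes nearest to it in pattern, and up to 4 pathway genes per comparison. Other names were chosen after their values were seen. Alternatives changed the arrays fitted, probe sets, low-value filter, scaling, variance model, replicate block and acinar covariate.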

Additional observations from a re-analysis of the deposited data

Results flagged for a closer look

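The PBA difference depended on genotype by a test of the interaction in Plxnd1, at -1.15 (PBA in hIAPP minus PBA in wild type, log2; SE 0.18, limma adjusted p = 0.0288), with 2 of 2 PBA-treated hIAPP arrays below both untreated ones. The same held for Sema3g, at -1.35 (SE 0.24, limma adjusted p = 0.0437), again with 2 of 2 arrays below. In the 8 fits that left out 1 array, the interaction was -1.3 to -1.0 in Plxnd1 and -1.6 to -1.1 in Sema3g. Neither call held in any of these fits. Of the 8 other alternatives, 4 lost the call of Plxnd1 and 5 that of Sema3g.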

How the results depend on the processing

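Each count is of 32 family genes or of all genes tested. For all genes it was 1874 for the transgene without PBA, 1384 for PBA in hIAPP islets, 50 for PBA in wild type, 71 for the transgene under PBA and 335 for the interaction. With only the arrays compared, family counts were 0 for PBA in hIAPP and 0 for the transgene under PBA, and counts over all genes 483, 14, 0 and 0. With the acinar covariate, the family had 0 for PBA in hIAPP and 0 for the interaction, and all genes 89, 4 under PBA and 4 for the interaction. Without the first array of each PBA-treated genotype, family counts were 0 and 0 for these, and all genes 483, 0, 0, 1 and 0. With trend and robust variances, the family had 10 for the transgene and 5 for the interaction, and all genes 2292 for PBA in hIAPP, 300 in wild type, 349 under PBA and 1060 for the interaction. Centred arrays gave 4349 and 3500 genes for the transgene and PBA in hIAPP and 0 family genes for the interaction, which had 1 with all probe sets tested (2820 probe sets for the transgene). The low-value filter gave 80 genes for PBA in wild type.

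With the replicate block the family interaction count was 0, and all genes gave 5 for PBA in wild type, 15 under PBA and 118 for the interaction. Same-numbered arrays correlated at -0.14 to 0.10 in their deviations, so the numbers do not pair them. Leaving out 1 array gave family counts of 3 to 6 for the transgene, 0 to 4 for PBA in hIAPP, 0 to 0 in wild type, 1 to 1 under PBA and 0 to 0 for the interaction. For all genes these were 572 to 1578, 166 to 968, 0 to 2, 5 to 13 and 0 to 3. A left-out group then has 1 array, assumed to vary like the others. Sema5a under PBA kept its call in 8 of 8 such fits. No direction of a gene called reversed. Signal near background limits what could be seen in 9 family genes whose brightest probe set never exceeded it.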

Other observations

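Over all 17097 genes, the 5 whose array values, taken from their untreated wild-type mean, lay nearest to those of Sema5a were Crispld2, Snhg18, Ms4a7, Vip and Lum. They were chosen for this pattern over 8 arrays, so their values are a description. Crispld2 was 4.7 and 4.8 in untreated wild-type, 4.2 and 4.1 in PBA-treated wild-type, 8.2 and 7.9 in untreated hIAPP and 6.7 and 7.2 in PBA-treated hIAPP islets. Its root mean square distance from Sema5a was 1.42, against 1.47 for Snhg18. Ms4a7, a macrophage gene, was 6.1 to 6.5 on the wild-type arrays, 9.7 and 9.4 in untreated hIAPP and 8.3 and 8.4 in PBA-treated hIAPP islets. Lum, a matrix proteoglycan gene, was 9.0 and 8.9 in untreated and 7.1 and 7.8 in PBA-treated hIAPP islets, and 5.5 to 6.8 on the wild-type arrays. Vip, a neuropeptide gene, was 6.0 on wild type 1 and 7.8 to 8.6 on the other 3 wild-type arrays, and 9.5 to 10.3 on the hIAPP arrays. Of these 5 genes, Snhg18 and Vip had PBA-treated hIAPP arrays at or above the untreated ones in group mean.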
